A study of Mus musculus with 8 samples.

Results

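The genes described here encode the enzymes that build cholesterol and fatty acids, together with the regulators that set how strongly those enzymes are transcribed. They were chosen by gene symbol from a list of 30 names, and all 30 were found among the 46983 genes of the expression table. The list holds 18 sterol enzymes, 6 fatty acid enzymes and 6 genes grouped as regulators of the sterol regulatory element-binding proteins (SREBPs). These 6 are Srebf1 and Srebf2, which encode the SREBPs, with Scap, Insig1, Insig2 and the sterol carrier gene Stard4. Expression was measured by RNA-Seq of whole hippocampus from 4 XBP1s-TG and 4 control mice, all C57BL/6 and 2 months old. XBP1s-TG mice carry 2 transgenes (TRE-XBP1s;Camk2a-tTA). The tetracycline-controlled activator tTA is made under the Camk2a promoter, which is active in forebrain excitatory neurons, and it switches on spliced Xbp1 (Xbp1s) once doxycycline (Dox) is taken out of the drinking water. Tissue was collected 7 days after Dox removal, and the genotype of the control mice is given only as Control. The XBP1s-TG libraries are named S1 to S4 and the control libraries S5 to S8. Since whole tissue was sequenced, fewer cells of a type and less RNA per cell cannot be told apart in any value below.

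Cholesterol is built from acetyl-CoA through mevalonate, the isoprenoid farnesyl diphosphate, squalene and lanosterol, and the last steps rearrange and reduce double bonds of the sterol ring. SREBP-2 and SREBP-1 are made as precursors in the endoplasmic reticulum, where SCAP escorts them to the Golgi for cleavage when sterols are low and the INSIG proteins hold them back when sterols are high. In the adult brain cholesterol is made locally, with oligodendrocytes and astrocytes as major sources. XBP1s is the transcription factor produced by the IRE1 branch of the unfolded protein response, and in mouse liver it is known as a driver of lipid synthesis genes.

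Levels are given in TPM, which correct the reads of a gene for transcript length and library total, so that they can be compared between genes. Reads per library were recovered from the TPM values, as the smallest whole numbers that gave their ratios, and totalled 34821797 to 52059316. The member with the fewest recovered reads in any library was Ebp with 495, and Scd2 had the most with 93586. Xbp1, counted over transgene and endogenous transcripts together, stood at 786, 549, 1094 and 729 TPM in XBP1s-TG libraries S1 to S4, against 70.4, 68.9, 71.9 and 69.7 TPM in control libraries S5 to S8. The tissue held defining markers of the cells expected in hippocampus, and some of these differed between libraries. The summed level of 12 oligodendrocyte markers was 3254 to 3724 TPM in XBP1s-TG libraries and 2665 to 3758 TPM in control libraries, with S8 lowest, and 0 of the 12 passed both thresholds described next. By the adjusted p alone 1 of the 12 was lower. For 11 astrocyte markers the sums were 2426 to 2584 TPM in XBP1s-TG libraries and 2185 to 2436 TPM in control libraries. Of these 11, 0 were called, and 2 were higher and 1 lower by the adjusted p alone. Choroid plexus markers, 12 in the table, summed to 91.3 TPM in S1 and 188 TPM in S3, while S2 held 5199 TPM, S4 held 9230 TPM and the control libraries 4070 to 9025 TPM. Of 7 microglia markers tested, 0 were called and 7 were lower by the adjusted p alone, with a median log2 fold change of -0.23. All 8 in the table summed to 443 to 522 TPM in XBP1s-TG libraries and 507 to 537 TPM in control libraries. Of 7 excitatory neuron markers, the cells in which the transgene is driven, 1 was called lower (Neurod6, 110 to 188 TPM in XBP1s-TG and 227 to 300.2 TPM in control libraries), 3 were lower and 1 higher by the adjusted p alone, and the median was -0.32. Of 5 endothelial markers tested, 0 were called and 2 were lower by the adjusted p alone. Of 6 interneuron markers tested, 0 were called and 1 was lower by the adjusted p alone. Over all genes tested, the adjusted p alone gave 24.4% higher and 29.4% lower. The part of these markers in the values below was not tested.

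For the comparison between groups, 2 was added to each TPM value, log2 was taken and the libraries were quantile normalized. Genes were kept if any library exceeded 4 on this scale (14 TPM), and the 9270 that remained were fitted with limma. A gene was called when its Benjamini-Hochberg adjusted p over all 9270 genes was below 0.05 and its fold change was at least 1.5. Of all genes tested, 520 (5.61%) were called higher and 255 (2.75%) lower in XBP1s-TG mice. All 30 members passed the limit on low values. Lss did so only through 3 XBP1s-TG libraries, with no control library above the limit.

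Among the 30 genes, 2 were called higher in XBP1s-TG mice and 0 lower. This share lay near that of all genes tested. The 2 were Ebp and Dhcr7, which encode enzymes of the last part of cholesterol synthesis. By the adjusted p alone, without the limit on the fold change, 6 members were higher (Ebp, Dhcr7, Sc5d, Lss, Acly and Insig1) and 8 were lower (Acat2, Hmgcs1, Fdft1, Sqle, Hsd17b7, Fasn, Srebf2 and Stard4), while 16 did not pass. Over all genes tested the same rule gave 24.4% higher and 29.4% lower, so the share of members in each direction lay near or below that of all genes. In TPM, all 4 XBP1s-TG libraries were above all 4 control libraries for 6 members (the same 6), against 34.1% of all genes tested. Lss counts among these 6 only because its XBP1s-TG libraries passed the limit on low values. All 4 XBP1s-TG libraries were below all 4 control libraries for 2 members (Fdft1 and Srebf2), against 13.2% of all genes tested. The median log2 fold change was -0.08 over the 30 members and -0.04 over all genes tested.

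**Figure D1:**
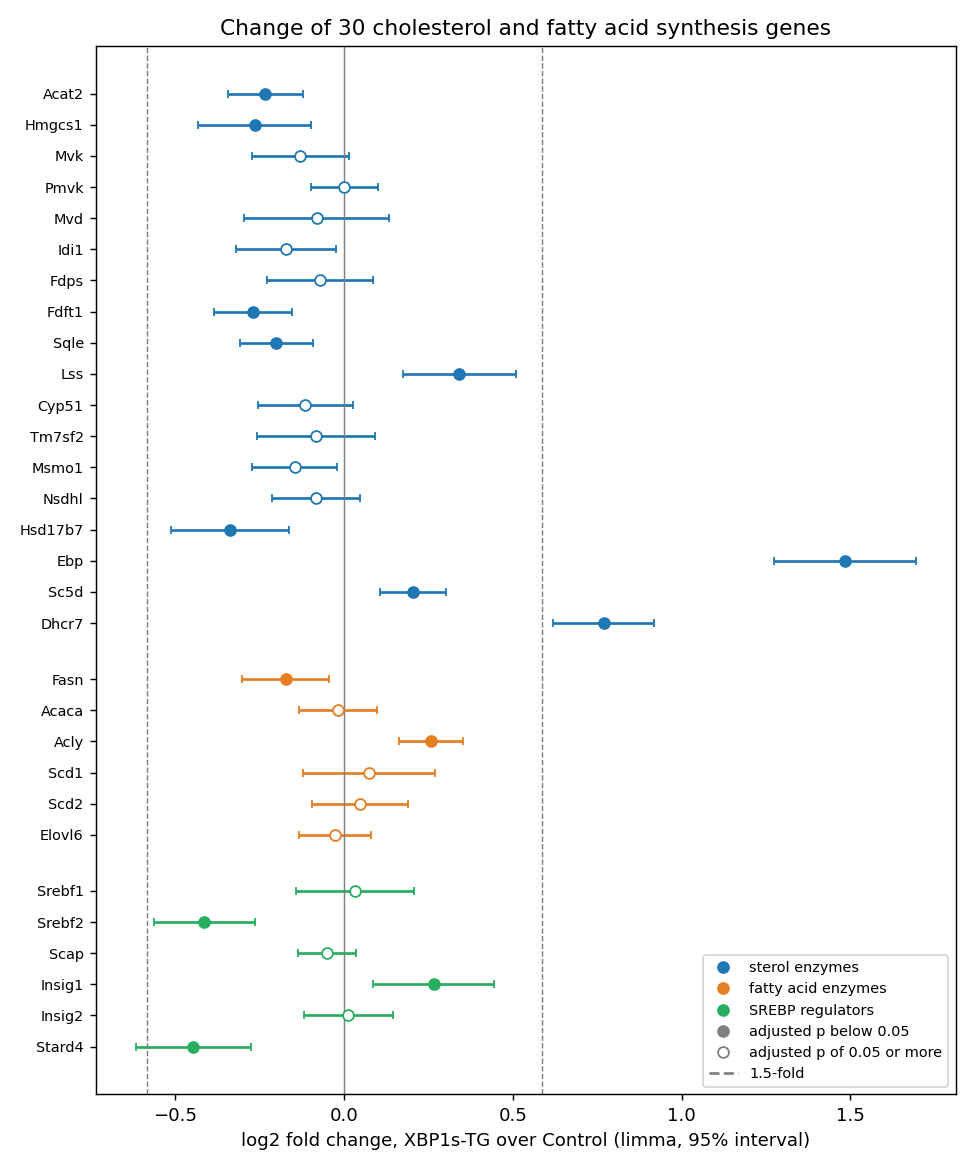
Log2 fold change (XBP1s-TG over control, horizontal axis) of the 30 genes, in pathway order from top to bottom within each group, with the 95% interval from limma. Filled points have an adjusted p below 0.05 and dashed lines mark 1.5-fold. Ebp at 1.49 and Dhcr7 at 0.77 are the only filled points beyond a dashed line, and the other sterol enzymes lie between -0.34 and 0.34.

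Ebp encodes the sterol isomerase that moves the double bond of the sterol B ring from position delta-8 to delta-7. It is on the minus strand of chromosome X (GRCm38, 8185329 to 8193512), and no other gene of the table overlaps it. Its level was 62.8, 50.5, 76.4 and 57.5 TPM in XBP1s-TG libraries S1 to S4, against 19.0, 19.4, 19.3 and 18.5 TPM in control libraries S5 to S8. The control libraries spanned less than 1 TPM, and the lowest XBP1s-TG library, S2, was 2.66 times the control mean while the highest, S3, was 4.02 times. The means were 61.8 ± 11.0 TPM in XBP1s-TG and 19.0 ± 0.393 TPM in control mice (SD, n = 4 each). On the normalized log2(TPM + 2) scale the change was 1.49 (SE 0.0937, adjusted p = 4.11e-06 from limma), or 2.8-fold. By size of this change Ebp stood at position 69 of the 9270 genes.

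Dhcr7 encodes 7-dehydrocholesterol reductase, which makes cholesterol from 7-dehydrocholesterol in the final step of the Kandutsch-Russell branch. It is on the plus strand of chromosome 7 (143823145 to 143848410), and no other gene of the table overlaps it. Its level was 63.4, 60.6, 78.4 and 63.9 TPM in XBP1s-TG libraries S1 to S4, against 32.9, 36.8, 36.6 and 33.2 TPM in control libraries S5 to S8. S3 was again the highest and S2 again the lowest XBP1s-TG library, as for Xbp1 itself, and the groups did not overlap. S1 lay just below S4, the reverse of their order for Xbp1. S2 was the lowest XBP1s-TG library for 36.1% of all genes tested, and a relation to Xbp1 was not tested. The means were 66.6 ± 7.98 TPM in XBP1s-TG and 34.9 ± 2.08 TPM in control mice (SD, n = 4 each). The log2 fold change was 0.77 (SE 0.0669, adjusted p = 2.23e-05 from limma), or 1.7-fold, at position 339 of 9270. Ebp and Dhcr7 were called under every alternative setting and with each library left out, and also without S1 and S3, the XBP1s-TG libraries with few choroid plexus reads (1.32 for Ebp and 0.70 for Dhcr7). Without S1 and S3 the adjusted p also stayed below 0.05 for Sc5d (0.20), Acly (0.21), Acat2 (-0.22), Fdft1 (-0.22), Hsd17b7 (-0.23), Srebf2 (-0.33) and Stard4 (-0.34), given as log2 fold changes. Lss (0.37) stayed below it too, but only its XBP1s-TG libraries lay above the limit on low values, so its test rests on that group.

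Because these 2 genes carried the largest changes, the sequences before their transcription starts are shown with that of Sc5d, which acts between them, and of Hmgcs1, an early enzyme that was lower by the adjusted p. Each is the 250 bases upstream of a start in RefSeq (GRCm38.p6), read 5′ to 3′ on the strand of the gene. They lie at chrX:8193513-8193762 (Ebp, minus strand), chr7:143822917-143823166 (Dhcr7, plus strand, the first of its starts), chr9:42264301-42264550 (Sc5d, minus strand) and chr13:119690101-119690350 (Hmgcs1, plus strand). Capitals mark, on either strand, the NF-Y box CCAAT, the Sp1 box GGGCGG, the E-box CACGTG and the sterol regulatory element TCACNCCAC.
Ebp: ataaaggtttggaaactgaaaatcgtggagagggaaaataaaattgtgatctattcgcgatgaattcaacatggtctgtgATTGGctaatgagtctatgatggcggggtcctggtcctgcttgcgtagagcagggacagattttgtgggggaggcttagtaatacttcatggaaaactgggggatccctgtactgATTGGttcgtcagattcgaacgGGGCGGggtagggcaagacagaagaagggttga
Dhcr7: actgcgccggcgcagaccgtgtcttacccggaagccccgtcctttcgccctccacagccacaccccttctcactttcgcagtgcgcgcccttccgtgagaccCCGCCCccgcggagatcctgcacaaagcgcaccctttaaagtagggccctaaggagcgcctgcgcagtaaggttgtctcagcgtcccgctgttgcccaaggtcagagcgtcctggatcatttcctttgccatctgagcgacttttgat
Sc5d: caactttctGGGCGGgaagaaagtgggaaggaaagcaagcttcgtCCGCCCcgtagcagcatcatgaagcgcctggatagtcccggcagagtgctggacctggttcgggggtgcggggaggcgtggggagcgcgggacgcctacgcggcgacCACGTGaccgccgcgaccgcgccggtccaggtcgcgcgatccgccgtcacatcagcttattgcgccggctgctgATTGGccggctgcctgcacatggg
Hmgcs1: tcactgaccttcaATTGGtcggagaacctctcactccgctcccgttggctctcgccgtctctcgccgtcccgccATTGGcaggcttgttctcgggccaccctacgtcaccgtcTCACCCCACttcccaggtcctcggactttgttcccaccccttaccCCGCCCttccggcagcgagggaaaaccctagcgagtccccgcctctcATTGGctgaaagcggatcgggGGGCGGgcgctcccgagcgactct
The Ebp sequence holds NF-Y boxes at positions -170 and -55 from the start and an Sp1 box at -33. The Hmgcs1 sequence holds NF-Y boxes on both sides of its sterol regulatory element. The Sc5d sequence holds an E-box between Sp1 boxes and an NF-Y box. The Dhcr7 sequence shown holds an Sp1 box alone, while its other annotated starts, inside the gene, are preceded by an E-box at one and by NF-Y and Sp1 boxes at another.

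Promoters of 24 of the 30 members were in the RefSeq table, with 250 bases before and 50 after each start, and some genes had several starts. CCAAT was present in 20 of the 24 genes (83.3%), against 41.1% of all 27025 genes of the table. GGGCGG was also present in 20 (83.3%), against 38.2% of all genes. CACGTG was present in 5 (20.8%; Hsd17b7, Sc5d, Dhcr7, Scap and Insig1), against 8.09% of all genes. TCACNCCAC was found in Hmgcs1 alone, against 1.44% of all genes. Of letters known to bind XBP1, the unfolded protein response element TGACGTGG was in 0 of the 24, against 0.714% of all genes. The endoplasmic reticulum stress element (CCAAT, 9 bases and CCACG) was in 0 of 24, against 0.137%. Its second form (ATTGG, 1 base and CCACG) was also in 0, against 0.0444%. CCACG by itself was in 15 (62.5%), against 35.5% of all genes. Both strands were searched, and CCACG can lie inside the stress elements. A gene was counted when any of its starts matched. All genes of the RefSeq table were used, whether or not they were expressed here, so the shares do not set members beside other expressed genes. These matches describe letters in the windows and were not tested.

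Sc5d, the desaturase that acts between EBP and DHCR7, was higher by a smaller margin. Its level was 87.0, 84.0, 84.5 and 82.2 TPM in XBP1s-TG libraries S1 to S4, against 64.9, 73.5, 67.8 and 63.1 TPM in control libraries S5 to S8. The groups did not overlap, and the order of the XBP1s-TG libraries differed from that of Ebp. The log2 fold change was 0.20 (SE 0.0437, adjusted p = 0.00367 from limma), below the 1.5-fold limit. Lss, the cyclase that closes squalene epoxide into lanosterol, had 15.6, 15.7, 13.5 and 14.8 TPM in XBP1s-TG libraries, against 11.0, 11.7, 11.8 and 8.49 TPM in control libraries. The change was 0.34 on the log2 scale (SE 0.0748, adjusted p = 0.00405 from limma). With values below 4 raised to 4, as the study did with values under its noise limit, Lss no longer passed (0.06, adjusted p = 0.119).

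**Figure D2:**
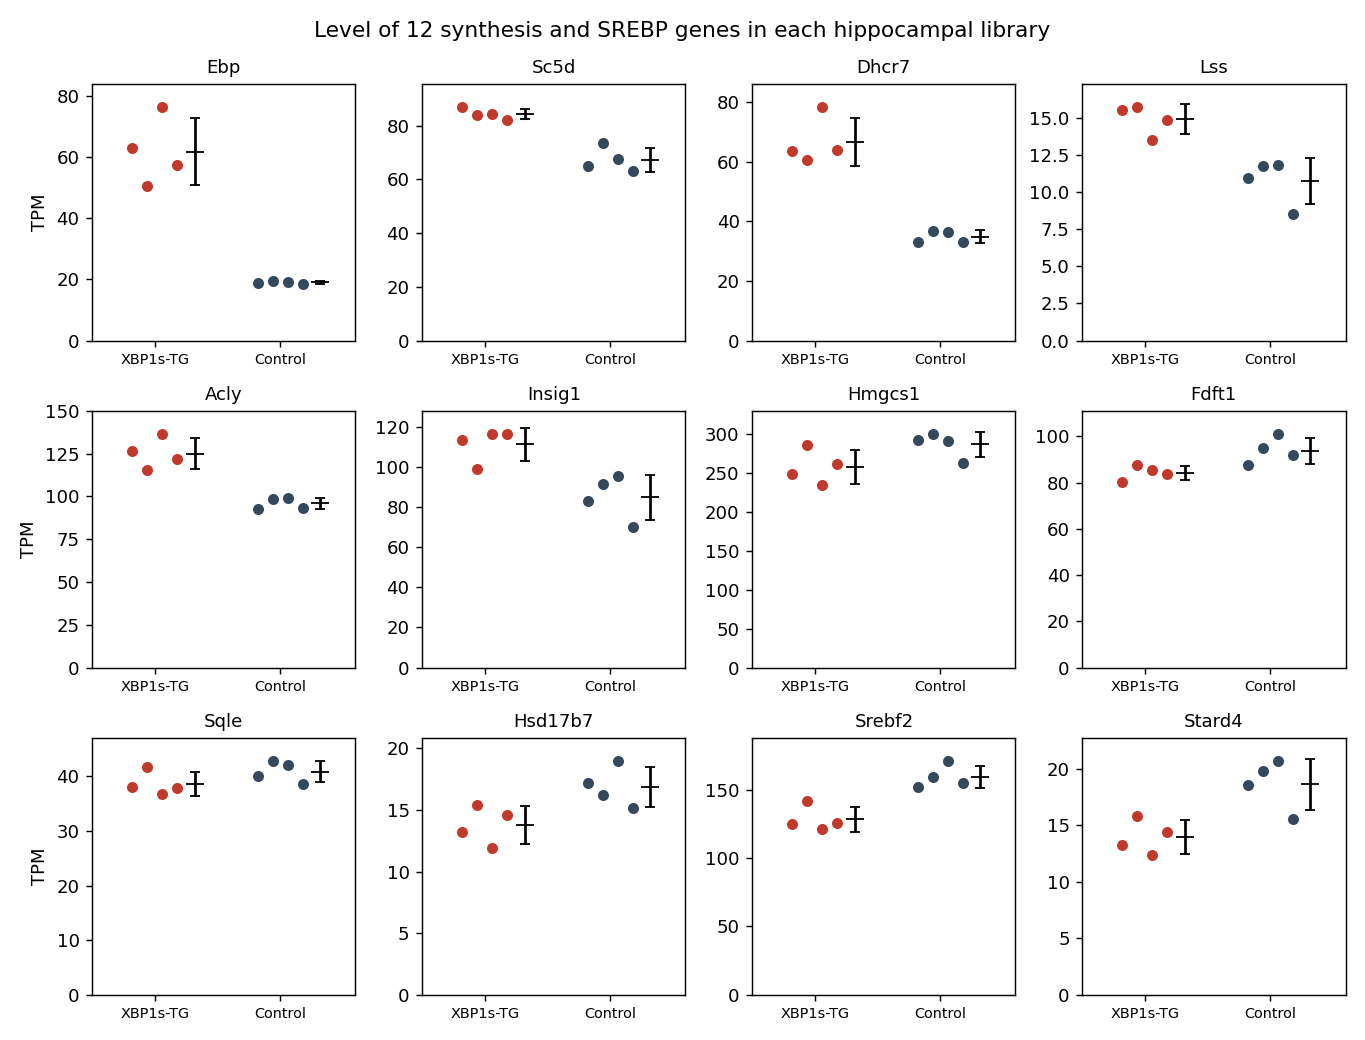
TPM (vertical axis, from 0) of 12 genes in each library, with XBP1s-TG at the left and control at the right of each panel, and with the mean and SD of each group of 4 beside the points. The XBP1s-TG points of Ebp (50.5 to 76.4 TPM) lie far above the control points (18.5 to 19.4 TPM), while those of Srebf2 (121 to 142 TPM) lie below the control points (152 to 171 TPM).

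Of the 18 sterol enzymes, 14 had a negative log2 fold change, against 5197 of 9270 genes tested (56.1%). With TPM alone this count was 9 of 18, against 3606 of 9299 genes tested. By the adjusted p alone 5 were lower, close to the 29.4% of all genes, and none of these reached 1.5-fold. Hmgcs1, the cytosolic HMG-CoA synthase that starts the mevalonate route, was the most abundant sterol enzyme, with 248, 286, 234 and 261 TPM in XBP1s-TG libraries S1 to S4, against 292, 299, 291 and 263 TPM in control libraries S5 to S8. The groups overlapped, since S2 lay above S8. Its log2 fold change was -0.27 (SE 0.0744, adjusted p = 0.0139 from limma), and it did not pass without quantile normalization (-0.15, adjusted p = 0.0812), without S1 and S3 (-0.15, adjusted p = 0.106) or with the unequal-variance test per gene (adjusted p = 0.0639).

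Fdft1, squalene synthase, commits farnesyl diphosphate to sterols. It had 80.2, 87.4, 85.2 and 83.9 TPM in XBP1s-TG libraries, against 87.5, 94.9, 101 and 91.8 TPM in control libraries. The highest XBP1s-TG library lay just under the lowest control library. On the log2 scale Fdft1 changed by -0.27 (SE 0.0512, adjusted p = 0.00183 from limma). Ctsb, on the opposite strand and at a higher level (328 TPM in XBP1s-TG and 317 TPM in control mice), overlaps it, and the sources used here do not say whether counting used strand.

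Hsd17b7, a ketoreductase of the demethylation steps at sterol carbon 4, had 13.2, 15.4, 11.9 and 14.6 TPM in XBP1s-TG libraries, against 17.2, 16.2, 18.9 and 15.1 TPM in control libraries. The log2 fold change was -0.34 (SE 0.0777, adjusted p = 0.00524 from limma), and S2 lay above S8. Acat2, the thiolase that joins acetyl-CoA units, averaged 42.1 ± 2.51 TPM in XBP1s-TG and 45.7 ± 1.77 TPM in control mice, with a log2 fold change of -0.23 (SE 0.0493, adjusted p = 0.00329 from limma). Its near copy Acat3 was listed at 6.76 to 9.51 TPM in XBP1s-TG and 9.25 to 10.3 TPM in control libraries, and reads that both share may have been split. Sqle, the epoxidase that oxidizes squalene, averaged 38.6 ± 2.13 TPM in XBP1s-TG and 40.8 ± 1.91 TPM in control mice (log2 fold change -0.20, adjusted p = 0.00627 from limma). Without quantile normalization neither Acat2 (-0.11, adjusted p = 0.098) nor Sqle (-0.08, adjusted p = 0.245) passed. Sqle did not pass without S1 and S3 either (-0.15, adjusted p = 0.0655).

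The other 9 sterol enzymes did not pass the adjusted p. Idi1, which isomerizes the isoprenoid unit, came nearest, with 54.6 ± 4.61 TPM in XBP1s-TG and 56.8 ± 2.45 TPM in control mice and a log2 fold change of -0.17 (adjusted p = 0.0503 from limma). Msmo1, the oxidase at sterol carbon 4, followed at -0.15 (adjusted p = 0.0511 from limma). The kinase genes Mvk and Pmvk, the decarboxylase gene Mvd, the farnesyl diphosphate synthase gene Fdps, the lanosterol demethylase gene Cyp51, the sterol reductase gene Tm7sf2 and the dehydrogenase gene Nsdhl had log2 fold changes between -0.13 and 0.00. Pmvk had the narrowest result, at 0.00 with a 95% interval of -0.10 to 0.10. Expressed genes overlap Mvd (Gm20388), Fdps (Gm43738), Cyp51 (Akap9) and Tm7sf2 (Vps51).

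Summed over the 18 sterol enzymes, the level was 996, 1074, 1026 and 1030 TPM in XBP1s-TG libraries S1 to S4, against 953, 1023, 1016 and 922 TPM in control libraries S5 to S8. Without Ebp and Dhcr7 the sums were 870, 963, 872 and 908 TPM in XBP1s-TG libraries, against 901, 967, 961 and 870 TPM in control libraries. The groups overlapped in both sums, and the mean was 1.05 times that of control mice with Ebp and Dhcr7 and 0.977 times without them.

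**Figure D3:**
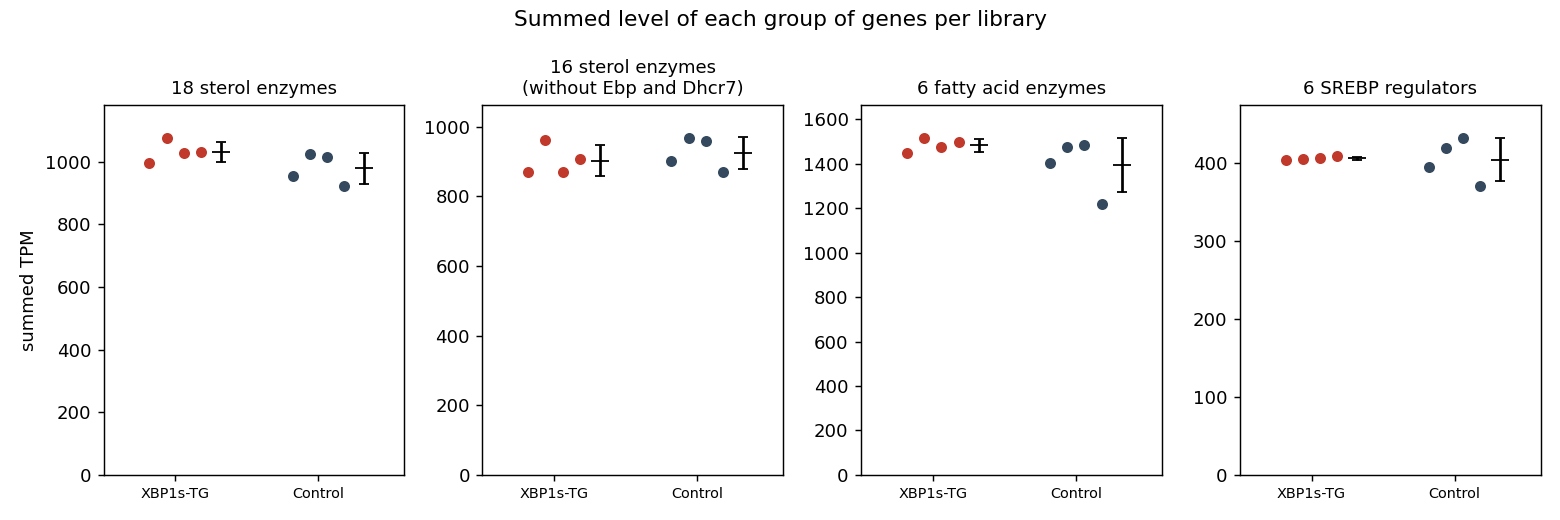
Summed TPM (vertical axis, from 0) of each group of genes in each library, XBP1s-TG at the left and control at the right, with the mean and SD of 4 libraries. The XBP1s-TG and control points overlap in every panel, and the 4 XBP1s-TG sums of the SREBP regulators lie between 404 and 409 TPM.

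The fatty acid enzymes included 0 genes called in either direction. Acly, ATP citrate lyase, supplies cytosolic acetyl-CoA to both pathways. It had 126, 116, 136 and 122 TPM in XBP1s-TG libraries S1 to S4, against 92.9, 98.6, 98.9 and 93.3 TPM in control libraries S5 to S8. All XBP1s-TG libraries lay above all control libraries, with S3 highest and S2 lowest as for Ebp. Its log2 fold change was 0.26 (SE 0.0424, adjusted p = 0.000847 from limma), or 1.2-fold.

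Fasn, fatty acid synthase, averaged 90.2 ± 4.85 TPM in XBP1s-TG and 93.8 ± 7.05 TPM in control mice, and the groups overlapped. The log2 fold change of -0.17 (adjusted p = 0.0294 from limma) passed the adjusted p narrowly and was lost under 10 alternatives, among them each of S1, S3, S4, S6 and S7 left out (adjusted p = 0.0664 to 0.0849). Scd2, the main desaturase of brain, was the most abundant of the 30 genes, with 1041 to 1088 TPM in XBP1s-TG libraries and 887 to 1089 TPM in control libraries, and a log2 fold change of 0.05 (95% interval -0.10 to 0.19). Scd1, a related desaturase, had 134 to 151 TPM in XBP1s-TG libraries and 101 to 139 TPM in control libraries. Its log2 fold change was 0.07 (95% interval -0.12 to 0.27), and the copies Scd3 and Scd4 stayed at or below 3.19 TPM. Acaca, acetyl-CoA carboxylase, had a log2 fold change of -0.02 (95% interval -0.13 to 0.10). Elovl6, which lengthens palmitate, was at -0.03 (95% interval -0.13 to 0.08).

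The regulators also included 0 genes called, with changes in both directions by the adjusted p alone. Srebf2 encodes SREBP-2, the main transcription factor of sterol enzymes. It had 125, 142, 121 and 125 TPM in XBP1s-TG libraries S1 to S4, against 152, 159, 171 and 155 TPM in control libraries S5 to S8. Every XBP1s-TG library lay below every control library, with S2 nearest to them. The log2 fold change was -0.41 (SE 0.0665, adjusted p = 0.000712 from limma), or 0.75-fold on the normalized scale. In TPM the XBP1s-TG mean was 0.806 times the control mean. Srebf2 passed the adjusted p under every alternative, at -0.48 to -0.31.

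Stard4, a sterol carrier that moves cholesterol between membranes and is itself a SREBP target, had 13.2, 15.8, 12.4 and 14.4 TPM in XBP1s-TG libraries, against 18.6, 19.8, 20.7 and 15.5 TPM in control libraries. S2 lay just above S8, and the log2 fold change was -0.45 (SE 0.0762, adjusted p = 0.00102 from limma), the lowest of the 30 genes. Insig1, which retains SCAP in the endoplasmic reticulum and is also a SREBP target, went the other way, with 114, 98.9, 116 and 116 TPM in XBP1s-TG libraries, against 82.8, 91.2, 95.4 and 69.8 TPM in control libraries. Insig1 changed by 0.27 on the log2 scale (SE 0.0799, adjusted p = 0.0191 from limma). It did not pass without S4 (0.24, adjusted p = 0.0525), without S1 and S3 (0.24, adjusted p = 0.114), with no filter on low values (adjusted p = 0.0596) or with the unequal-variance test per gene (adjusted p = 0.0706). Insig2 (0.01, 95% interval -0.12 to 0.15), Scap (-0.05, 95% interval -0.14 to 0.04) and Srebf1 (0.03, 95% interval -0.14 to 0.21) did not pass. Rai1, on the opposite strand, overlaps Srebf1.

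Control library S8 was the lowest of its group for 19 of the 30 genes and for 60.2% of all genes tested, and it also had the lowest oligodendrocyte sum (2665 TPM, against 3432 to 3758 TPM in the other control libraries). The part of these markers in the levels of S8 was not tested. Without S8, Ebp and Dhcr7 were still called, while Scd1, Scd2 and Srebf1 turned to log2 fold changes of -0.01, -0.02 and -0.05, none passing the adjusted p.

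The small changes moved with the scaling. Without quantile normalization the median change over the genes tested was 0.07 on the log2 scale instead of -0.04, a shift of 0.104, and calls over all genes were 709 higher and 150 lower. The median of the 30 members was then 0.05, and 18 of them were positive, against 10 with quantile normalization. The 6 genes that were higher by the adjusted p with quantile normalization also passed without it, Lss again only through XBP1s-TG libraries above the limit. The 8 lower genes became 4 (Fdft1, Hsd17b7, Srebf2 and Stard4).

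**Figure D4:**
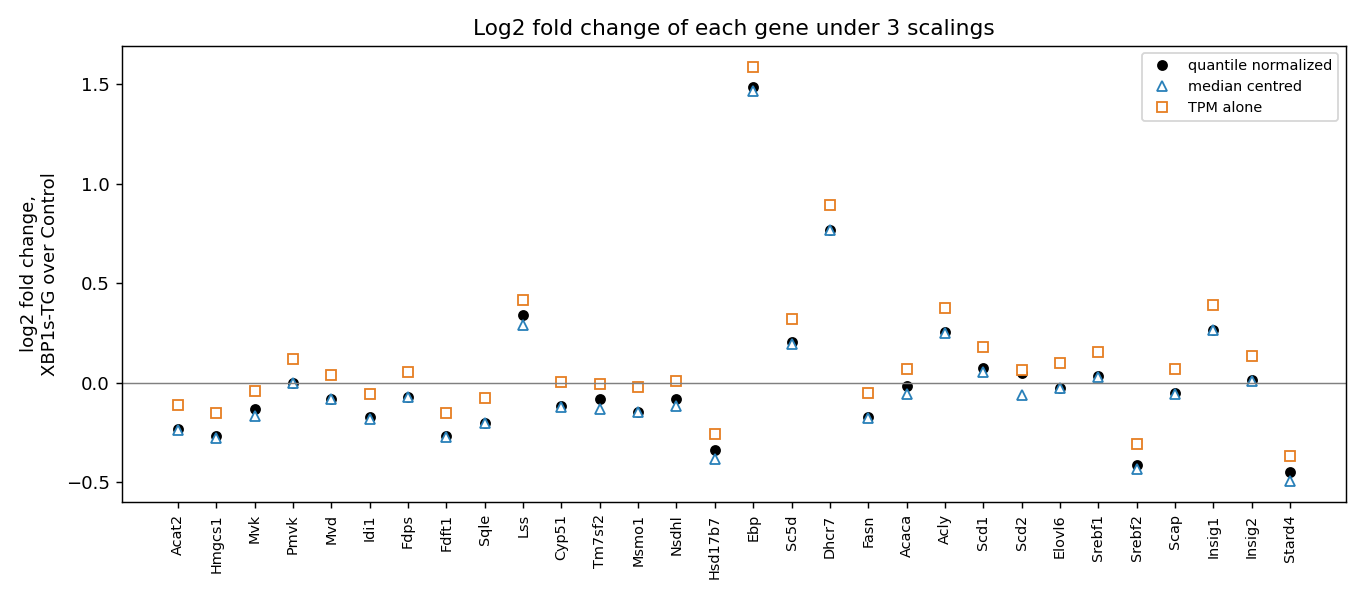
Log2 fold change (XBP1s-TG over control, vertical axis) of each of the 30 genes under 3 scalings, in pathway order. Values from TPM alone lie above the quantile normalized ones for all genes, and Ebp (1.49 quantile normalized) and Dhcr7 (0.77) stand apart from the others under each scaling.

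Other genes of lipid synthesis and sterol handling were counted from lists chosen for their roles. The isoprenoid branch makes dolichol, ubiquinone and prenyl groups from the same farnesyl diphosphate. Its list also held Aacs, which acts before farnesyl diphosphate (log2 fold change 0.11, adjusted p = 0.124 from limma). In this list 9 of 12 genes were tested, and 1 was called higher and 0 lower, with a median of 0.08. Over all genes tested 5.61% were called higher, and 1 of 9 is too small a count to set beside it. The 1 gene was Dhdds, a subunit of the enzyme that makes the dolichol chain, with 136, 111, 163 and 125 TPM in XBP1s-TG libraries S1 to S4, against 55.2, 52.3, 54.2 and 50.5 TPM in control libraries S5 to S8. Its libraries did not overlap, and the log2 fold change was 1.18 (SE 0.0873, adjusted p = 9.64e-06 from limma) and 1.03 without S1 and S3. Of sterol transport and turnover genes, 21 of 27 were tested, and 1 was called higher and 0 lower. This was Osbp, which carries sterol from the endoplasmic reticulum to the Golgi, with 86.5, 75.8, 95.8 and 79.5 TPM in XBP1s-TG libraries, against 52.6, 53.4, 50.1 and 45.7 TPM in control libraries (log2 fold change 0.60, SE 0.0613, adjusted p = 5.82e-05 from limma). Its fold of 1.51 lay just past the limit and fell short of it without S3, without S8 and without S1 and S3. Of SREBP processing and sterol sensing genes, 11 of 16 were tested and 0 were called (4 higher and 2 lower by the adjusted p alone). Of other fatty acid synthesis genes, 23 of 27 were tested and 0 were called (3 higher and 5 lower by the adjusted p alone). Over all genes tested the shares were 5.61% higher and 2.75% lower by both thresholds and 24.4% higher and 29.4% lower by the adjusted p alone, and nothing particular to these lists is read from their counts.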

How the data were processed

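Hippocampal RNA (500 ng per library, KAPA Stranded mRNA-Seq Kit) from 4 XBP1s-TG and 4 control mice was sequenced on an Illumina instrument. According to the study's methods, the authors checked reads with FastQC, trimmed them with Trimmomatic, mapped them to GRCm38 in CLCbio Genomics Workbench and deposited TPM values per gene. The deposited TPM values of each library share 1 total, so a rise of a few abundant genes lowers all others. The table's group means and p-values are the authors' own comparison and were not used. The sample sheet deposited with the table gives the class of each library, and libraries S1 to S8 are named as there. From the TPM values, log2(TPM + 2) was taken, quantile normalized over genes above 0 TPM in any library and fitted in limma 3.58.1 (lmFit, then eBayes with its trend option, in R 4.3.3). Genes needed at least 1 library above 4. The study floored values at a noise limit whose number is not given in the sources used here, took 1.5-fold and an adjusted p of 0.05 as thresholds and tested each gene with unequal variances. limma was used instead because each group has 4 libraries. Standard errors and intervals are from limma.

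Whole reads were recovered for 29237 of 29237 genes above 0 TPM (tolerance 0.001). Ratios of TPM between libraries within a gene gave a factor for each library. The reads were the smallest whole numbers that gave the ratios scaled by these factors, and voom was run on them as an alternative. Other settings changed the pseudocount (1 or 0.1), the filter (none, or 5), the scaling (TPM alone, or median centring), low values (those under 4 set to 4), the variance model (limma without trend, or unequal variances gene by gene), the call (adjusted p alone) or the libraries (each left out, or S1 with S3). The fit was tested on simulated data. Motifs were searched in RefSeq promoters of GRCm38.p6. All 30 members are named, and of each other list up to 4 genes past both thresholds with the smallest adjusted p. The members and lists were chosen with earlier results of these data known.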

Additional observations from a re-analysis of the deposited data

Results flagged for a closer look

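Of 60 groups of 4 values (30 genes in XBP1s-TG and in control mice), 3 held a library set apart from the other 3, where chance gives about 1 in 20. Mvk was at 20.4 TPM in XBP1s-TG library S2, against 17.4 to 17.8 TPM in the other XBP1s-TG libraries. Insig1 was at 98.9 TPM in S2, against 114 to 116 TPM in the other XBP1s-TG libraries. Mvd was at 31.1 TPM in S1, against 36.8 to 37.5 TPM in the other XBP1s-TG libraries. S2 had the lowest Xbp1 level of the XBP1s-TG libraries (549 TPM). It was the highest of them for 18 of the 30 genes, and the share of all genes for which it was highest was not counted. It was the lowest of them for 6 of the 30 genes, against 36.1% of all genes tested. A relation to Xbp1 was not tested. Without S2, Mvk had a log2 fold change of -0.18 and passed the adjusted p (0.0268 from limma), whereas over all libraries it did not (0.114).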

How the results depend on the processing

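No paired analysis was possible because the columns of the table carry no replicate number that could be matched to the labels. Ebp (1.32 to 1.59) and Dhcr7 (0.70 to 0.89) were called under every alternative, and no other member was called under any of them except by the adjusted p alone. By the adjusted p alone, counts were 6 higher and 8 lower for the members, 4 and 5 for sterol enzymes, 1 and 1 for fatty acid enzymes, 1 and 2 for SREBP regulators, 3 and 1 for the isoprenoid branch, 4 and 7 for sterol transport and turnover, 4 and 2 for SREBP processing and sterol sensing, 3 and 5 for other fatty acid synthesis and 2260 and 2729 for all genes. Genes lower over all genes numbered 150 with TPM alone and 152 without S1 and S3, against 255. For sterol transport and turnover, calls higher were 0 to 1 with 1 library left out and 0 without S1 and S3. For other fatty acid synthesis, calls lower were 0 to 1 with 1 library left out.

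Changes of sign came only from members that did not pass the adjusted p. With TPM alone the log2 fold change was 0.12 for Pmvk, 0.041 for Mvd, 0.052 for Fdps, 0.0033 for Cyp51, 0.0086 for Nsdhl, 0.067 for Acaca, 0.099 for Elovl6 and 0.067 for Scap. Median centring gave -0.061 for Scd2, voom 0.0065 for Pmvk, and leaving out S1 and S3 gave 0.028 for Fdps, 0.018 for Elovl6 and -0.033 for Insig2. With 1 library left out, the log2 fold change ranged from -0.036 to 0.02 for Pmvk, -0.051 to 0.0075 for Acaca, -0.008 to 0.12 for Scd1, -0.0197 to 0.081 for Scd2, -0.047 to 0.015 for Elovl6, -0.047 to 0.076 for Srebf1 and -0.024 to 0.058 for Insig2. The 495 recovered reads of Ebp in one control library were the fewest of any member, so depth limited these levels little.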
